A study of Homo sapiens with 4 samples.

Results

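Metallothioneins and the genes of the zinc response around them were followed in TPC-1 and B-CPAP, both established human lines of papillary thyroid carcinoma. The set holds 10 of the 58884 genes in the deposited table: the metallothionein genes MT2A, MT1A, MT1E, MT1F, MT1G, MT1H, MT1M and MT1X, the zinc-sensing transcription factor gene MTF1 and the zinc exporter gene SLC30A1. The genes were taken by name, as the metallothionein isoforms with their regulator and a zinc exporter, and they were chosen by the TPM values themselves, since MT2A was lower at 40 °C in both lines. Values at 40 °C against 37 °C are therefore given as a description, with no test. The 4 groups, of 1 library each, were B-CPAP at 40 °C, B-CPAP at 37 °C, TPC-1 at 40 °C and TPC-1 at 37 °C, from flasks held under water at the stated temperature. How long the cells were held there is not settled, as 3 label fields differ (15 min for growth, 20 min for the design, 24 h for the treatment). The labels name no other treatment and no separate cultures within a group.

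Metallothioneins are small, cysteine-rich proteins that bind zinc and copper and take up cadmium. When free zinc rises, MTF1 binds short metal response elements in the promoters of metallothionein genes and of SLC30A1 and raises their transcription, which buffers zinc in the cytosol and exports it from the cell. Human metallothionein genes lie side by side in 1 cluster on chromosome 16 and are also induced by glucocorticoids, oxidants and other stresses.

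The cluster runs on GRCh38 from MT2A (ENSG00000125148, chromosome 16, 56608199 to 56609497) through MT1E (56625475 to 56627112), MT1M (56632233 to 56633986), MT1A (56638666 to 56640087), MT1F (56657694 to 56660698), MT1G (56666731 to 56668065) and MT1H (56669814 to 56671129) to MT1X (56682424 to 56684196). MTF1 and SLC30A1 lie on chromosome 1. The start of the coding sequence shows how alike the metallothionein genes are, and hence why a short read can be hard to place. Coding bases 1 to 90 are given for MT2A and for the 3 other isoforms with the most reads, from GENCODE 29 transcripts, with capitals where a base differs from MT2A.
MT2A: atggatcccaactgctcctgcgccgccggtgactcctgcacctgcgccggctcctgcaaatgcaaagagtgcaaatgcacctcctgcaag
MT1E: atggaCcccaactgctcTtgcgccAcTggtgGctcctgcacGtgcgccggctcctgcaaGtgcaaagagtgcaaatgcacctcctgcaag
MT1X: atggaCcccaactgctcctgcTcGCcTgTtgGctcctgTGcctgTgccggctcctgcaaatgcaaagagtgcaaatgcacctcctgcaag
MT1F: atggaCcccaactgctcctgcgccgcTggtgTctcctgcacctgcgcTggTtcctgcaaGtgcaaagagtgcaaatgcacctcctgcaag
Over the whole coding sequence, MT2A was 89.8 to 93.7% identical to each of the 7 others, and the MT1 genes were 88.7 to 94.6% identical to one another. Across whole transcripts the members were less alike. Of all 50-base stretches of MT2A transcripts, 3.02% also occurred in another gene's transcripts, against 7.1% for MT1E, 18.3% for MT1X, 16.5% for MT1G and 0% for SLC30A1. Of 100-base stretches, 0% of those of MT2A and MT1E and 11.3% of those of MT1X did so. The partner of MT1X was AC026461.1, a noncoding gene that overlaps it on the same strand and was listed at 0 in every library. Neither the read length nor how reads matching several genes were counted is known here, so the split of reads among MT1 isoforms is uncertain and the sum is given beside them. If reads matching several genes were left out, they are missing from the sum as well.

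Promoters of 5 of the 10 genes were found in RefSeq (GRCh38.p14), those of MT2A, MT1H, MT1X, MTF1 and SLC30A1, each from 250 bases before to 50 after the start that RefSeq gives the gene, which need not be the GENCODE 29 start above (of the 5, only MT1H has the same start in both). MT2A and MT1X are shown because they are the most abundant of the metallothioneins with a sequence, and SLC30A1 because it stood on the other side of 1 at 40 °C. Capitals mark the core of the metal response element, searched as TGCACNC and TGCGCNC on both strands; no match overlapped another.
MT2A promoter, chr16:56608334-56608633, plus strand: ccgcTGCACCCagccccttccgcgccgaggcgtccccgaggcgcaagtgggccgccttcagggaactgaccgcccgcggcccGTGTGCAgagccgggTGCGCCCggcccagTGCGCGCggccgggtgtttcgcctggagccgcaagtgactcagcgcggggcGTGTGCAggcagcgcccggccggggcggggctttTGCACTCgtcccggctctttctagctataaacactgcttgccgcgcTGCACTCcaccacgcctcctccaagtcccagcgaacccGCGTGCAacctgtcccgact
MT1X promoter, chr16:56682220-56682519, plus strand: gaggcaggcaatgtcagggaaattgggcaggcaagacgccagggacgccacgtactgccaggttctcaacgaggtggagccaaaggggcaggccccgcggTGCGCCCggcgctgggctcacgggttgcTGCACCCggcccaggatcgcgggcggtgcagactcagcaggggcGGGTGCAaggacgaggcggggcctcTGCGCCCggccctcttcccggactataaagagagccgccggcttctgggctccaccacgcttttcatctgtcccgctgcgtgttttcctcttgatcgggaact
SLC30A1 promoter, chr1:211579112-211579411, minus strand: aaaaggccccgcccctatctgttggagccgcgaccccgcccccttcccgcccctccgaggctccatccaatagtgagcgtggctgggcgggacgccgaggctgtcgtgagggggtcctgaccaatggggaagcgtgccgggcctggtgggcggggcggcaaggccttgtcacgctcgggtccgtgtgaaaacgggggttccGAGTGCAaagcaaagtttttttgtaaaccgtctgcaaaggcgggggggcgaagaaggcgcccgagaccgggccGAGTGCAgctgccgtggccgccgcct
MT2A held 8 matches, MT1H 8, MT1X 4, SLC30A1 2 and MTF1 0. Of all 35116 promoters of 300 bases, 29.6% held at least 1 match, 8.6% at least 2 and 0.601% at least 4. The 8-base letters GAANNTTC and TTCNNGAA, which make up part of a heat shock element, were found in 0 of the 5 promoters and in 13.5% of all promoters. A match is a match of letters, and nothing follows from it about binding.

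Depth was estimated at 23232350 and 24466576 reads for B-CPAP at 40 °C and 37 °C and at 20704722 and 22054713 reads for TPC-1. Protein-coding genes took 91.6 to 93.2% of TPM and mitochondrially encoded genes 16.8 to 23.9%. TPM is a level corrected for transcript length and sequencing depth. Of 8 thyroid follicular markers, PAX8 stood at 98.9 to 284.4 TPM, whereas SLC5A5 was listed at 0 in every library, TG reached at most 0.746 TPM and TSHR 0.0135 TPM, so these differentiated markers of the labelled tissue were at or near 0. The 9 fibroblast markers summed to 49.8 and 39.6 TPM in B-CPAP and to 9.59 and 9.17 TPM in TPC-1.

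MT2A, the isoform that most human cells express at the highest level, made up most of the metallothionein RNA in both lines and was lower at 40 °C in each. B-CPAP had 711.9 TPM of it at 40 °C and 1148.1 TPM at 37 °C. TPC-1 had 819.5 TPM at 40 °C against 1029.4 TPM at 37 °C. The 37 °C library was the higher one in each line, and the ranges of the lines overlapped. The ratio of 40 °C to 37 °C was 0.62 in B-CPAP (95% interval 0.598 to 0.643, from an estimated 4552 and 7830 reads) and 0.796 in TPC-1 (0.765 to 0.828, from 4327 and 5690 reads). Such intervals are exact (Clopper-Pearson), compare 2 libraries and cover counting error only, so they hold no spread between cultures. By level, MT2A ranked 129 and 79 of 58884 genes in B-CPAP and 135 and 109 in TPC-1, at 40 °C and 37 °C in each case. As these are bulk samples, fewer cells that express a gene and less of its RNA per cell cannot be told apart.

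MT1E, the isoform next in level in B-CPAP, stood at 174.1 TPM at 40 °C against 265.7 TPM at 37 °C in that line, a ratio of 0.655 (0.611 to 0.703). In TPC-1 it stood at 1.15 and 1.42 TPM from 7 and 9 reads, and the interval of its ratio, 0.258 to 2.46, included 1. The B-CPAP libraries were thus high and both TPC-1 libraries near the limit of detection. MT1X stood at 14.8 TPM at 40 °C against 25.7 TPM at 37 °C in B-CPAP, a ratio of 0.577 (0.478 to 0.694). In TPC-1 it stood at 2.0 and 1.44 TPM, from 20 and 15 reads, with a ratio of 1.40 whose interval, 0.679 to 2.93, included 1. MT1X was therefore lower at 40 °C in B-CPAP, and its direction in TPC-1 was not detectable at this depth.

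The other MT1 members were scarce. MT1F had 1.0 TPM at 40 °C against 2.03 TPM at 37 °C in B-CPAP, from an estimated 13 and 29 reads, and was listed at 0 in TPC-1. MT1A had 6 reads in B-CPAP at 37 °C and 0 in the 3 other libraries, and MT1M an estimated 6 reads in B-CPAP at 40 °C and 0 elsewhere. MT1G and MT1H were listed at 0 in every library, which by the rule of 3 reads allows up to 0.718 TPM. The relative MT1L, a transcribed pseudogene of the cluster that is not a member, had 11.8 TPM at 40 °C against 23.15 TPM at 37 °C in B-CPAP (ratio 0.511, 0.329 to 0.779) and 0 reads in TPC-1. MT1B, MT3, an isoform of the brain, and MT4, an isoform of stratified epithelium, were listed at 0 in every library.

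**Figure D1:**
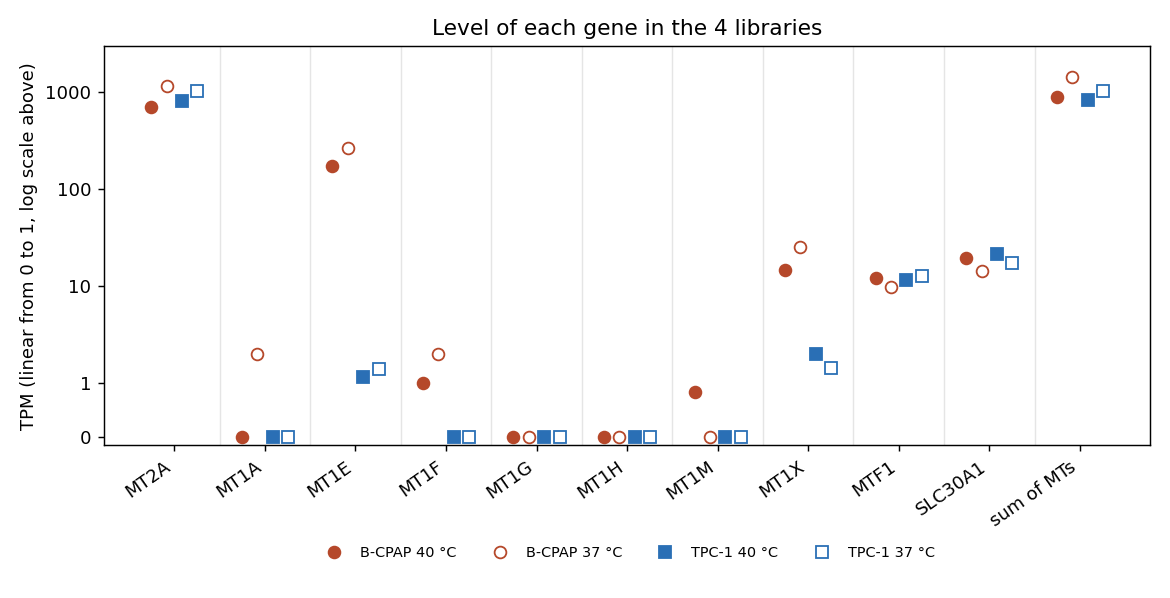
TPM of each of the 10 genes and of the sum of the 8 metallothioneins (vertical axis, linear from 0 to 1 and logarithmic above) in the 4 libraries, with 1 point per library, filled at 40 °C and open at 37 °C. MT2A sits between 711.9 and 1148.1 TPM in all 4, whereas MT1E sits at 174.1 and 265.7 TPM in B-CPAP and at 1.15 and 1.42 TPM in TPC-1.

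Because the isoforms share sequence, their TPM was also summed. The 8 metallothioneins together reached 902.6 TPM at 40 °C against 1443.5 TPM at 37 °C in B-CPAP, a ratio of 0.625. The TPC-1 sum was 822.6 TPM at 40 °C against 1032.2 TPM at 37 °C, a ratio of 0.797. Counted as summed reads the ratios were 0.626 (0.606 to 0.646) and 0.798 (0.767 to 0.83). MT2A supplied 78.9 and 79.5% of this sum in B-CPAP and 99.6 and 99.7% in TPC-1, so the sum follows MT2A. Without MT2A the 7 MT1 members summed to 190.7 and 295.5 TPM in B-CPAP at 40 °C and 37 °C (ratio 0.645) and to 3.16 and 2.85 TPM in TPC-1.

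The zinc exporter SLC30A1 (ENSG00000170385, chr1:211571568-211578742), which sits in the plasma membrane and is a classical MTF1 target, was higher at 40 °C as deposited, against the direction of MT2A. B-CPAP had 19.6 TPM of it at 40 °C and 14.4 TPM at 37 °C (ratio 1.36, 1.23 to 1.52). TPC-1 had 21.5 TPM at 40 °C against 17.2 TPM at 37 °C (ratio 1.25, 1.12 to 1.39). The 40 °C library was the higher one in each line. Adjusted for the GC content of transcripts, the log2(TPM + 1) difference was -0.18 in B-CPAP and 0.04 in TPC-1, against 0.42 and 0.31 before. The sign thus turned in B-CPAP only. Centred on the median it was 0.24 in B-CPAP and 0.21 in TPC-1, and quantile-normalized 0.25 and 0.26. Whether base composition caused the difference was not tested. MTF1 itself (ENSG00000188786, chr1:37809567-37859620) had 12.1 TPM at 40 °C against 9.8 TPM at 37 °C in B-CPAP (ratio 1.24, 1.11 to 1.39). In TPC-1 it stood at 11.7 and 12.8 TPM, a ratio of 0.908 whose interval, 0.808 to 1.02, included 1. The 4 MTF1 values thus lay close together, and the direction in TPC-1 was not detectable at this depth.

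**Figure D2:**
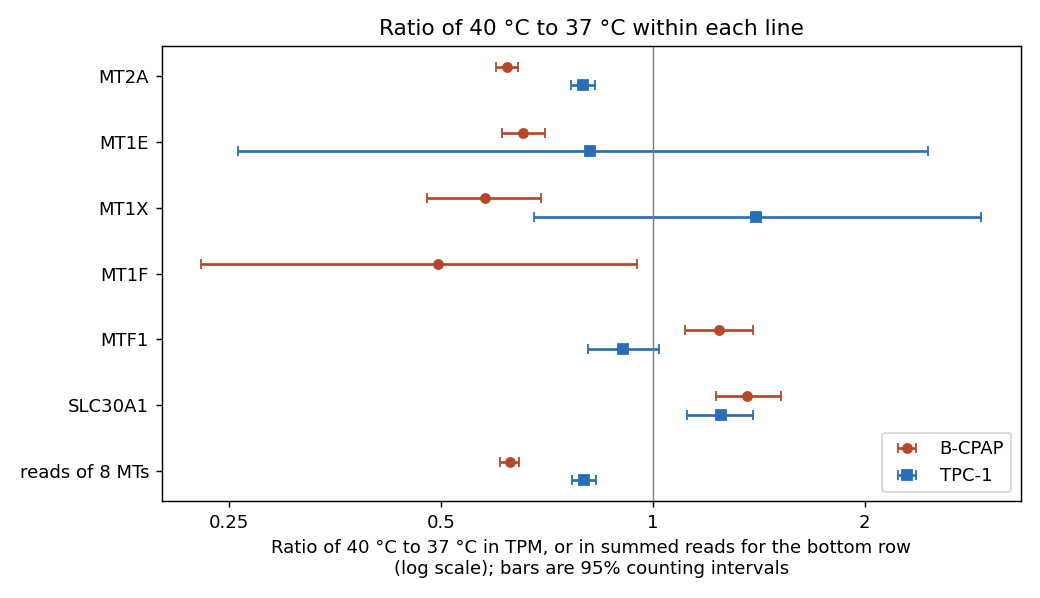
Ratio of 40 °C to 37 °C (horizontal axis, log scale) for the members with reads in both libraries of a line, and for the summed reads of the 8 metallothioneins, with B-CPAP above TPC-1; bars are 95% counting intervals. MT2A lies at 0.62 and 0.796, and SLC30A1 lies at 1.36 and 1.25, on the other side of 1, although its sign in B-CPAP turns (-0.18 on the log2 scale) once adjusted for GC content.

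Of the 10 members, 5 had a mean of at least 1 TPM over the 4 libraries and entered the comparisons over all genes: MT2A, MT1E, MT1X, MTF1 and SLC30A1. On the log2(TPM + 1) scale, which understates changes of low genes, 3 of these 5 were 1.5-fold or more lower at 40 °C in B-CPAP, against 2.97% of all 14912 genes tested, and 0 were 1.5-fold higher, against 12.6%. In TPC-1, 0 of 5 were 1.5-fold lower (2.49% of all genes) and 0 were 1.5-fold higher (5.4%). The members were proposed with this contrast known, so nothing is read from these shares. The background itself depended on scaling: in B-CPAP 443 genes were lower and 1878 higher as deposited, 1208 and 916 when libraries were centred on the median, 909 and 1111 when quantile-normalized, and 509 and 536 once adjusted for GC content. In TPC-1 the counts were 371 and 805 as deposited, 474 and 631 centred, and 476 and 586 quantile-normalized.

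Adjusting for the GC content of transcripts moved the genes 1.5-fold lower and higher from 443 and 1878 to 509 and 536 in B-CPAP. In TPC-1 they went from 371 and 805 to 407 and 630. No slope of the temperature differences on GC content was measured, so the members are only set beside theirs. GC content was 56.1% for MT2A, 54.9% for MT1E, 53.0% for MT1X, 46.7% for MTF1 and 38% for SLC30A1. The log2 difference of MT2A was -0.69 in B-CPAP and -0.33 in TPC-1, and -0.55 and -0.29 once adjusted for GC content. In B-CPAP, MT1E had -0.61 and -0.51 once adjusted, and MT1X -0.75 and -0.73. All 3 metallothioneins thus kept their sign in B-CPAP, although MT2A and MT1E were then less than 1.5-fold lower, so that 1 of 5 members passed that fold. MTF1 had 0.28 in B-CPAP and 0.07 once adjusted, and -0.13 and -0.25 in TPC-1.

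**Figure D3:**
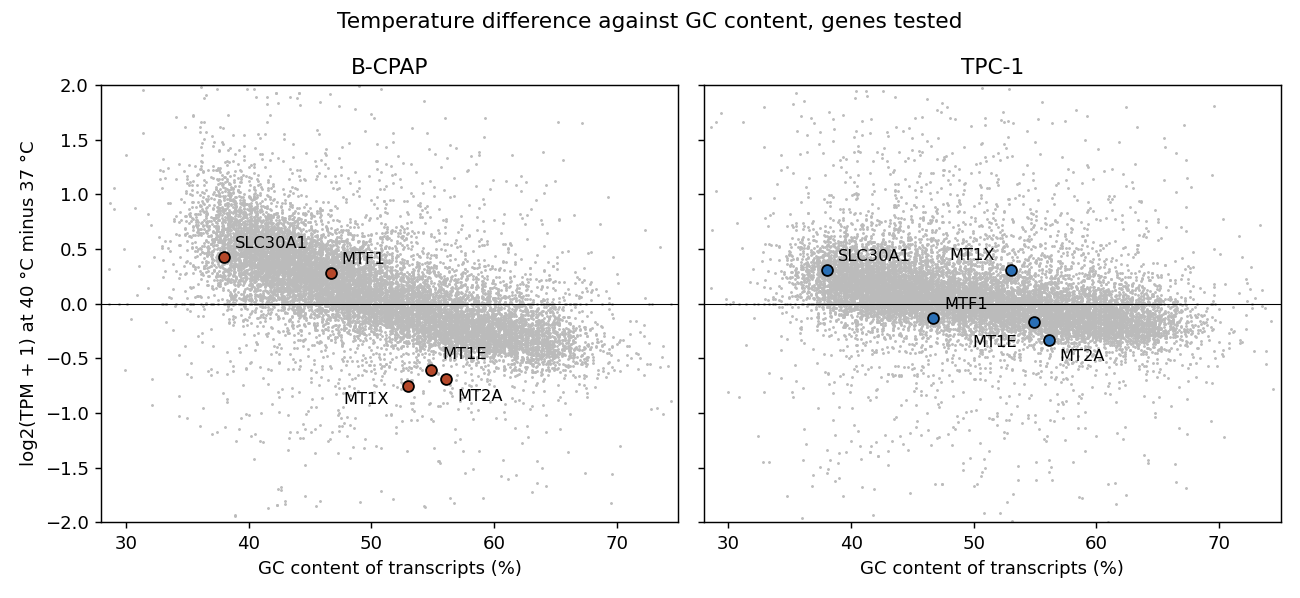
Difference in log2(TPM + 1) at 40 °C minus 37 °C (vertical axis) against GC content of transcripts (horizontal axis, %) for the genes tested (grey points), with B-CPAP left and TPC-1 right; values outside the axes are not drawn. MT2A, at 56.1% GC, lies at -0.69 and -0.33, and SLC30A1, at 38% GC, lies at 0.42 and 0.31.

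The comparison of B-CPAP with TPC-1 did not enter the choice of members and was tested by limma with temperature as a block, with p-values adjusted over all 14912 genes. MT1E and MT1X were higher in B-CPAP, and MT2A, MTF1 and SLC30A1 did not pass the test. The log2 difference of MT1E was 6.57 (SE 0.15, limma adjusted p = 2.44e-05), higher in B-CPAP at both temperatures, with TPM ratios of 151 at 40 °C (73.1 to 377) and 188 at 37 °C (98.8 to 411). The log2 difference of MT1X was 2.92 (SE 0.28, limma adjusted p = 0.000805), with ratios of 7.39 at 40 °C (4.65 to 12.4) and 17.9 at 37 °C (10.7 to 32.3). Over all genes, 62.7% were called between the lines, 29.9% higher in B-CPAP and 32.8% lower, so the 2 of 5 members called are no larger share than the background. By size, 0.194% of genes had a log2 difference at or above that of MT1E and 2.53% at or above that of MT1X. Both genes also averaged over 1 TPM in TPC-1 (1.28 and 1.72 TPM), so the filter on low values did not select them through B-CPAP alone. The fit left 1 residual degree of freedom. Its p-values set the difference between lines against how far such differences change with temperature. With so few values per gene, limma draws that spread largely from other genes of like level. The SE of 0.28 for MT1X, whose ratios were 7.39 and 17.9, is therefore partly that of other genes. The p-values hold no spread between cultures.

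The level of MT2A differed little between the lines, with a log2 difference of -0.02 (SE 0.10, limma adjusted p = 0.852), at a ratio of B-CPAP to TPC-1 of 0.869 at 40 °C (0.833 to 0.906) and 1.12 at 37 °C (1.08 to 1.15). The sign of that difference was positive when libraries were centred on the median (0.11), quantile-normalized (0.24) or rescaled without mitochondrially encoded genes (0.06). MTF1 had a log2 difference of -0.15 (SE 0.16, limma adjusted p = 0.441) and SLC30A1 of -0.19 (SE 0.12, limma adjusted p = 0.229). These do not show that the lines were alike. In B-CPAP the order of TPM levels was MT2A, MT1E, then MT1X, SLC30A1 and MTF1, of which MT1X (14.8 and 25.7 TPM) overlapped SLC30A1 (19.6 and 14.4 TPM). In TPC-1 it was MT2A, SLC30A1, MTF1, then MT1X (2.0 and 1.44 TPM) and MT1E (1.15 and 1.42 TPM), and only the last pair came close, on 7 to 20 reads.

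The lowly expressed MT1F, MT1A, MT1M and MT1L had reads in B-CPAP and none in TPC-1. MT1F was at least 3.65-fold higher in B-CPAP than in TPC-1 at 40 °C and at least 7.72-fold at 37 °C, taken against a floor of 3 reads per TPC-1 library with the B-CPAP reads as they are. With the counting error of both libraries, the 95% lower limits were 2.52 and 5.97, from approximate B-CPAP reads. MT1L was at least 9.36-fold and at least 19.2-fold higher against the same floor, with lower limits of 7.21 and 15.2. It passed the filter on low values only through B-CPAP, so its call is no support, and MT1F, MT1A and MT1M did not pass it. NUDT21, OGFOD1, BBS2 and NUP93, neighbours of the cluster, were expressed in both lines. Upstream of MT2A, NUDT21, a cleavage factor subunit gene, stood at 67.3 and 52.75 TPM in B-CPAP and 57.1 and 52.6 TPM in TPC-1, and BBS2, a gene of the ciliary BBSome, at 14.8 and 9.53 TPM and 14.6 and 11.7 TPM. OGFOD1, a ribosomal protein hydroxylase gene, stood at 42.7 and 36.6 TPM in B-CPAP and 21.3 and 21.7 TPM in TPC-1. Downstream, the nuclear pore gene NUP93 stood at 55.0 and 62.4 TPM in B-CPAP and 31.3 and 34.6 TPM in TPC-1. OGFOD1 and NUP93 were called higher in B-CPAP (limma log2 differences 0.85 and 0.81, adjusted p = 0.00258 and 0.00156), and NUDT21 and BBS2 were not called. SLC12A3, a kidney salt transporter gene downstream, was listed at 0 in B-CPAP and had 17 and 24 reads in TPC-1. These neighbours were chosen after their values were seen. Fibroblast markers also differed between the lines: 5 of the 6 tested were called higher in B-CPAP, against 29.9% of all genes, but 4 of these (COL1A2, COL3A1, LUM and FAP) passed the filter only through B-CPAP. COL3A1 and LUM were listed at 0 in both TPC-1 libraries. The 8 thyroid markers summed to 117 and 131 TPM in B-CPAP and to 286 and 305 TPM in TPC-1, and of the 4 tested, PAX8 and HHEX were called lower in B-CPAP, against 32.8% of all genes. NKX2-1 stood at 7.9 and 8.6 TPM in B-CPAP and was listed at 0 in TPC-1, so it passed the filter only through B-CPAP. The part of either list in the difference of MT1E and MT1X was not tested.

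**Figure D4:**
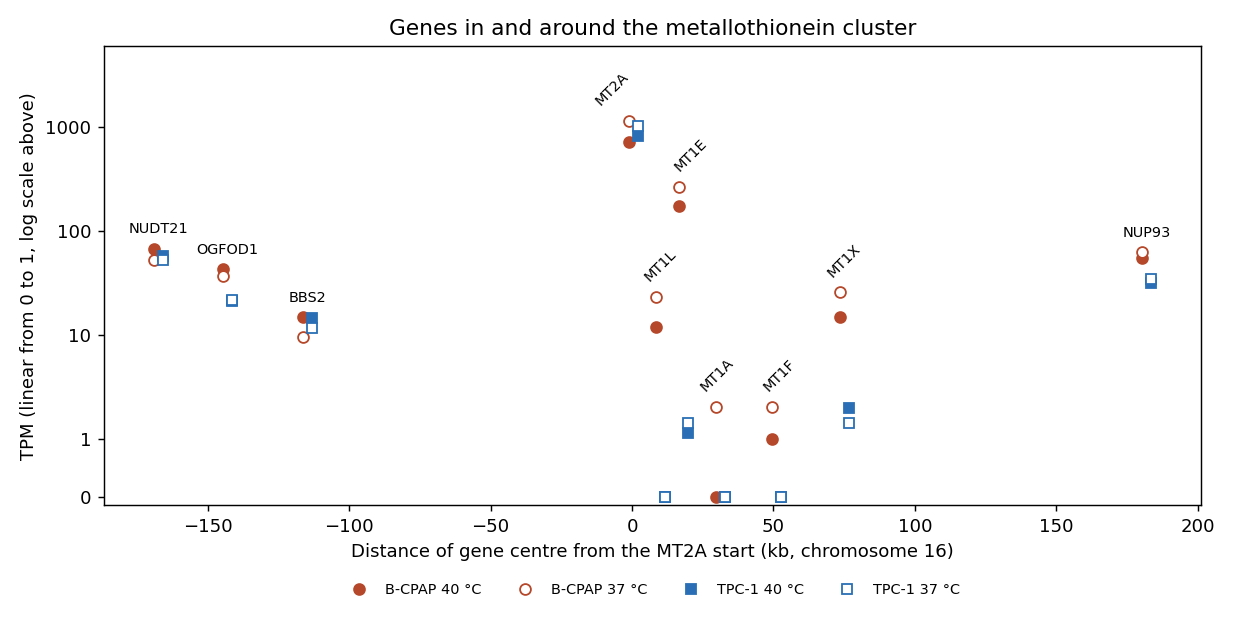
TPM (vertical axis, linear from 0 to 1 and logarithmic above) of protein-coding genes and transcribed pseudogenes with at least 1 TPM in any library and a centre within 200 kb of the start of MT2A, against the distance of the gene's centre from the start of MT2A (horizontal axis, kb), filled at 40 °C and open at 37 °C, with B-CPAP circles left of TPC-1 squares. MT1E, MT1L, MT1F and MT1X are all higher in B-CPAP, whereas MT2A at 711.9 to 1148.1 TPM, NUDT21 and BBS2 lie close together in all 4 libraries, and OGFOD1 and NUP93 are higher in B-CPAP.

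Zinc is also moved by other exporters of the SLC30 family, which carry it out of the cytosol into vesicles, the Golgi or the medium, and by importers of the SLC39 family, which bring it in. Of 10 further exporters 6 were tested. As deposited, 5 of the 6 were higher at 40 °C with a counting interval without 1 in B-CPAP, against 36.4% of all genes, and 3 of 6 in TPC-1, against 21.5%. Their median log2 difference was 0.38 in B-CPAP and 0.18 in TPC-1, against 0.09 and 0.03 over all genes, and -0.09 and -0.05 once adjusted for GC content. A counting interval narrows as reads rise, and the genes tested include many with few reads. Shares of intervals without 1, here and below, are therefore not compared at like depth. SLC30A9, listed here with the exporters and found in mitochondria, stood at 12.3 TPM at 40 °C against 6.89 TPM at 37 °C in B-CPAP (ratio 1.79, 1.57 to 2.04) and at 18.0 and 14.5 TPM in TPC-1 (ratio 1.24, 1.12 to 1.39). Its log2 differences, 0.75 and 0.30, were 0.22 and 0.07 once adjusted for GC content. SLC30A7 and SLC30A5, exporters of the early secretory pathway, had ratios of 1.41 and 1.23 in B-CPAP and 1.39 and 1.19 in TPC-1, but in B-CPAP both fell on the other side of 0 (-0.18 each) once adjusted for GC content. TMEM163, a zinc transporter of vesicles, had 0.126 and 0.0197 TPM in B-CPAP against 14.7 and 15.8 TPM in TPC-1, and passed the filter only through TPC-1, so its call is no support. SLC30A5 was higher in B-CPAP (limma log2 difference 0.85, adjusted p = 0.00223).

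Of 14 importers 11 were tested, and they went both ways at 40 °C. In B-CPAP 6 were higher and 3 lower with counting intervals without 1, and in TPC-1 6 were higher and 2 lower; over all genes 36.4% were higher and 21.8% lower in B-CPAP and 21.5% and 16.1% in TPC-1. Their median log2 difference was 0.21 in B-CPAP and 0.12 in TPC-1, and 0.13 and 0.07 once adjusted for GC content. SLC39A10, an importer of the plasma membrane that MTF1 represses in mouse and zebrafish cells, stood at 18.7 TPM at 40 °C against 8.62 TPM at 37 °C in B-CPAP (ratio 2.17, 1.94 to 2.44) and at 36.7 and 33.4 TPM in TPC-1 (ratio 1.10, 1.02 to 1.18). Adjusted for GC content its log2 difference was 0.45 in B-CPAP and -0.12 in TPC-1, so the sign turned in TPC-1. Its relative SLC39A6 had ratios of 1.57 and 1.18, and SLC39A8, which also carries cadmium and manganese, of 1.52 and 1.26. Adjusted for GC content, SLC39A6 went to 0.30 and 0.07, against 0.64 and 0.23 before, and SLC39A8 to 0.19 and 0.15, against 0.53 and 0.31. Between the lines, SLC39A10 was lower in B-CPAP (limma log2 difference -1.39, adjusted p = 0.00493) and SLC39A14, an importer of zinc and iron, was higher (limma log2 difference 1.25, adjusted p = 0.000365).

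**Figure D5:**
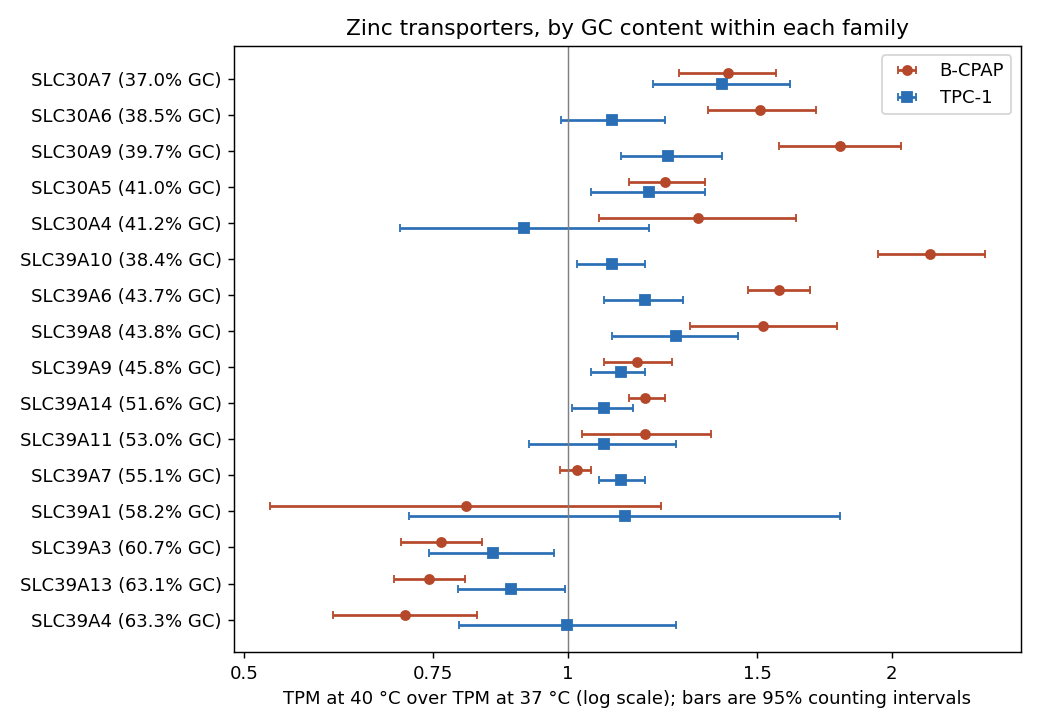
Ratio of TPM at 40 °C to 37 °C (horizontal axis, log scale) of the tested SLC30 exporters (top) and SLC39 importers (bottom), ordered by GC content within each family, with B-CPAP above TPC-1; bars are 95% counting intervals. TMEM163 is left out, and SLC39A10 has the ratios 2.17 and 1.10, the second of which turns (-0.12 on the log2 scale) once adjusted for GC content.

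Other genes reported as MTF1 targets were mostly lower at 40 °C, with medians of -0.26 in B-CPAP and -0.34 in TPC-1 over the 6 tested, and -0.16 and -0.29 once adjusted for GC content. In each line 4 of the 6 were lower with a counting interval without 1, against 21.8% and 16.1% of all genes. Higher with such an interval were 0 in B-CPAP and 1 in TPC-1, against 36.4% and 21.5% of all genes. By sign alone, 2 were higher in B-CPAP and 1 in TPC-1. These 6 genes had more reads than many of the genes tested, which makes such an interval more likely. The list was also chosen with earlier results of these data known, so nothing is read from these shares. CSRP1, a LIM-domain gene that depends on Mtf1 in mouse liver, stood at 75.35 TPM at 40 °C against 104 TPM at 37 °C in B-CPAP (ratio 0.724, 0.7 to 0.75) and at 93.7 and 118.2 TPM in TPC-1 (ratio 0.793, 0.765 to 0.821). PGF, a growth factor of the VEGF family, had ratios of 0.814 and 0.767, and SELENOW, a selenoprotein gene, of 0.842 and 0.777. Adjusted for GC content, the log2 difference of PGF was -0.02 in B-CPAP and -0.25 in TPC-1, against -0.27 and -0.36 before, and that of SELENOW -0.12 and -0.32, against -0.25 and -0.35. Between the lines, NDRG1, a hypoxia-induced gene, was lower in B-CPAP (limma log2 difference -3.36, adjusted p = 6.23e-05) and SELENOW was higher (limma log2 difference 1.25, adjusted p = 0.000452).

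The 8 genes of the response to heavy metals and oxidants, some of which cadmium induces together with metallothioneins, went both ways. In B-CPAP 4 were higher and 4 lower with counting intervals without 1, and in TPC-1 3 and 3; over all genes 36.4% and 21.8% did so in B-CPAP and 21.5% and 16.1% in TPC-1. HMOX1, the heme oxygenase induced by metals, stood at 2853.3 TPM at 40 °C against 3617.0 TPM at 37 °C in B-CPAP (ratio 0.789, 0.78 to 0.798) and at 201.8 and 244.7 TPM in TPC-1 (ratio 0.824, 0.784 to 0.867). Its log2 differences, -0.34 and -0.28, were -0.11 and -0.18 once adjusted for GC content. GCLM, a subunit of the enzyme that starts glutathione synthesis, had ratios of 1.42 and 1.16, with a log2 difference of -0.00 in B-CPAP and -0.01 in TPC-1 once adjusted for GC content, and TXNRD1, a thioredoxin reductase, had ratios of 1.34 and 1.12, with adjusted log2 differences of 0.14 and 0.03, against 0.42 and 0.17 before. HMOX1 was higher in B-CPAP than in TPC-1 (limma log2 difference 3.85, adjusted p = 1.93e-05), as was the cystine transporter SLC7A11 (limma log2 difference 1.42, adjusted p = 0.00425). Of 11 copper-handling genes 9 were tested, with medians of 0.27 in B-CPAP and 0.06 in TPC-1 and 0.03 and -0.05 once adjusted. Among them SOD1, the copper and zinc superoxide dismutase, had ratios of 1.24 and 1.07, and SCO1, a copper chaperone of cytochrome c oxidase, of 1.26 and 1.24. Adjusted for GC content, SOD1 had log2 differences of 0.22 and 0.04, against 0.31 and 0.10 before, and SCO1 0.06 and 0.14, against 0.32 and 0.28. SCO1 and the copper chaperone COX17 were higher in B-CPAP than in TPC-1 (limma log2 differences 1.01 and 1.02, adjusted p = 0.00199 and 0.00167).

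Glucocorticoids also induce MT2A and MT1X, and 8 of 9 genes of that response were tested. NR3C1, the glucocorticoid receptor gene, stood at 20.0 TPM at 40 °C against 11.97 TPM at 37 °C in B-CPAP (ratio 1.67, 1.53 to 1.83) and at 23.9 and 21.3 TPM in TPC-1 (ratio 1.12, 1.03 to 1.21), where its sign turned (-0.03) once adjusted for GC content. ERRFI1 had ratios of 1.2 and 1.11 and the clock gene PER1 of 0.727 and 0.887. Adjusted for GC content, ERRFI1 had log2 differences of 0.04 in each line, against 0.25 and 0.16 before, and PER1 -0.10 and -0.04, against -0.37 and -0.17. NR3C1 in B-CPAP had 0.28, against 0.70 before. Between the lines, SGK1, a kinase gene that glucocorticoids induce, had 54.8 and 48.7 TPM in B-CPAP against 1.07 and 0.844 TPM in TPC-1, where its mean of 0.959 TPM lay under the filter, so its call is no support. ERRFI1 was lower in B-CPAP (limma log2 difference -3.27, adjusted p = 3.19e-05). Of the 8 genes, 2 were called higher and 5 lower in B-CPAP, against 29.9% and 32.8% of all genes. The 2 called higher include SGK1, so nothing is read from that share.

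The genes whose pattern over the 4 libraries lay nearest to that of MT2A, by Euclidean distance of centred log2(TPM + 1) among the 10112 genes with a mean of at least 5 TPM, were TMEM175, ABHD8, AKR7A2, ALKBH7 and MVB12A, at distances of 0.071 to 0.144. TMEM175, a lysosomal ion channel gene, stood at 4.22 TPM at 40 °C against 6.88 TPM at 37 °C in B-CPAP and at 4.87 and 6.21 TPM in TPC-1. The ratios of the 5 genes lay between 0.614 and 0.7 in B-CPAP and between 0.785 and 0.868 in TPC-1. As the genes were picked by these same unadjusted values, ratios near those of MT2A follow from the choice. The GC content of the 5 genes' transcripts lay between 61.5 and 67.1%, above the 56.1% of MT2A. Adjusted for GC content, their log2 differences were -0.32 to -0.21 in B-CPAP and -0.22 to -0.09 in TPC-1, whereas MT2A had -0.55 and -0.29.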

How the data were processed

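The authors deposited 1 table of TPM for 58884 Ensembl gene IDs in 4 libraries, each summing to 1000000. Per the submitters' processing notes they used FastQC, MultiQC, Trimmomatic 0.38, featureCounts 2.0.0 and GRCh38, and per the labels' protocols the library kit was TruSeq RNA Library Prep Kit v2, which keeps no strand. GENCODE 29 held 58611 IDs (99.5%) and gave coordinates, exon lengths and, as the share over a gene's transcripts, GC content.

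TPM keeps no depth, but TPM times exon length came in steps of whole reads within 0.02 of a read for 90.5 to 92.0% of values up to 20 reads. For MT2A, MT1X, MTF1 and SLC30A1 another length (914, 1727, 7989 and 5893 bases) made all 4 values whole and was used for reads. MT1F and MT1M had reads in too few libraries for this and kept the GENCODE length. Their values are not whole reads at that length, so their reads are approximate. Ratios got Clopper-Pearson 95% intervals from rounded reads (scipy 1.17.1). A listed 0 allows up to 3 reads, and intervals and this limit cover counting error only.

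Log2(TPM + 1) of genes with a mean of at least 1 TPM was fitted with limma 3.58.1 (R 4.3.3; trend, two-sided, Benjamini-Hochberg over 14912 genes, threshold 0.05), and the fit and intervals were checked on simulated data. GC adjustment subtracted a lowess curve (fraction 0.3). Alternatives were pseudocounts, filters, scalings, GC adjustment, other limma settings and leaving out 1 library. The members and lists were chosen with earlier results of these data known. Named were all members, up to 3 genes of each further list with intervals without 1 the same way in both lines, up to 2 per list between lines, and 5 genes nearest to MT2A. Some genes are not reported here.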

Additional observations from a re-analysis of the deposited data

Results flagged for a closer look

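MT1X and MTF1 stood out because the values of the 2 lines had opposite signs between temperatures, although neither TPC-1 direction was detectable at this depth; the difference between lines was not tested, since each line had 1 library at each temperature. The log2(TPM + 1) difference of MT1X between 40 °C and 37 °C was -0.75 in B-CPAP and 0.30 in TPC-1, which lie -1.06 apart, and the TPC-1 value rests on 20 and 15 reads. That of MTF1 was 0.28 in B-CPAP and -0.13 in TPC-1, which lie 0.41 apart, and the counting interval of the TPC-1 ratio included 1.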

How the results depend on the processing

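Between the lines, MT1E and MT1X were called, and MT2A, MTF1 and SLC30A1 were not, under every alternative that kept all 4 libraries. At a mean of at least 5 TPM, MT1E and MT1X passed the filter only through B-CPAP, so their calls there are no support. With 1 library left out, the log2 difference of MT1E ran from 6.26 to 6.87 and that of MT1X from 2.55 to 3.30. The count of genes called, 9349, ran from 2911 to 5719 when 1 library was left out, a fit without the block that assumes a lone library varies like the other line's pair. The log2 difference of MT2A (-0.02) was positive when centred on the median (0.11), quantile-normalized (0.24) or rescaled without mitochondrially encoded genes (0.06), and ran from -0.37 to 0.32 with 1 library left out; that of SLC30A1 (-0.19) ran from -0.40 to 0.03. The fit held temperature as a block, and 7469 genes were called without it; samples could not be paired by replicate number, since the labels carry none.

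At 40 °C against 37 °C, MT2A was lower in both lines under every alternative. The set was chosen by that direction, and a change of pseudocount or filter cannot turn it, so nothing is read from this. Adjusting for GC content turned SLC30A1 in B-CPAP (-0.18). Members 1.5-fold lower in B-CPAP, 3, were 2 under quantile normalization, 2 without mitochondrially encoded genes and 1 once adjusted for GC content. All genes 1.5-fold lower and higher in B-CPAP, 443 and 1878, were 768 lower at a pseudocount of 0.1, 114 and 629 at 5, 1025 and 2890 without a filter, 119 and 1111 at a mean of at least 5 TPM, 1208 and 916 centred on the median (which moved the median gene from 0.09 to -0.10), 909 and 1111 quantile-normalized, and 536 higher once adjusted for GC content. In TPC-1, 371 and 805 were 633 and 1299 at a pseudocount of 0.1, 95 and 247 at 5, 1109 and 1982 without a filter, and 54 and 192 at a mean of at least 5 TPM. Depth limits MT1E and MT1X in TPC-1, at 7 to 20 reads. The cause of these shifts was not tested.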
